A study of Homo sapiens with 4 samples.

Results

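The 40 genes described here encode proteins of homologous recombination, the Fanconi anaemia pathway and mismatch repair, with close partners in base excision, end joining and damage signalling. They were taken as a fixed list of symbols, and all 40 were found by symbol among the 60662 entries of the deposited gene table and passed the filter on low counts. RNA was sequenced from U937, an established human myeloid cell line derived from a histiocytic lymphoma. There were 2 libraries of cells given 10 nM PMA for 72 h and 2 libraries of cells kept for 72 h without it, 1 of each from lot 1 and from lot 2. PMA is phorbol myristate acetate, which switches on protein kinase C. The labels give the aim of the treatment as differentiation to macrophage-like cells, and both groups are the same line, so they model a tumour line and not blood monocytes.

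Homologous recombination repairs double-strand breaks by copying the sister chromatid, which is present only after the DNA has been replicated, so many of its genes are most active in S and G2 phase. The Fanconi pathway recognises crosslinks between the DNA strands: its core complex attaches ubiquitin to the FANCD2-FANCI pair, and recombination then restores the fork. Mismatch repair corrects copying errors behind the fork. U937 cells proliferate without PMA, and phorbol esters are widely used to stop that growth while the cells take on macrophage features. RNA was taken from whole cultures, so fewer cells in S and G2 phase and less RNA per cell cannot be told apart.

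With PMA, 9 of the 40 repair genes fell and 0 rose by edgeR. At an unadjusted p under 0.05, 22 were lower and 1 was higher. Over all 16451 tested genes, 4445 had such a p in either direction. DESeq2 called 21 lower (10.4% of all its tested genes) and 1 higher (13.2%), and limma-voom 13 lower (3.87%) and 0 higher. The 9 were the recombination genes BRCA1, RAD51C, RAD54B and XRCC2, the Fanconi pair FANCD2 and FANCI, the BLM partner RMI2, the ADP-ribose polymerase PARP1 and the checkpoint kinase CHEK2. Their log2 fold changes lay between −3.97 and −2.20, with adjusted p-values of 0.0264 to 0.0480 by the quasi-likelihood test of edgeR (Benjamini-Hochberg over 16451 genes). The 9 are 22.5% of the list, against 2.02% of all tested genes called lower and 4.29% called higher. Over all 40 genes the median log2 fold change was −2.23, against −0.00043 over all tested genes. The 7 genes listed at 0 in the PMA library of lot 2 all had fitted changes below that median. Setting them at the lower bound that 3 counts give could therefore not move the median, and nothing is read from it. Both PMA libraries lay below both untreated libraries for 33 of the 40 genes (82.5%, against 29.4% of all tested genes), and in 28 the PMA level was no more than 0.5 of the untreated level in both lots (70%, against 14.6%). FANCE was the single gene with both PMA libraries above both untreated ones, which 31% of all tested genes showed. The groups overlapped for PALB2, FANCL, ATM, ATR, NBN and RAD50.

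The calls rest on few libraries. Where a library is left out, the lone library of its group is assumed to vary like the pair of the other group. In a fit blocked on lot, 5 of the 9 genes passed, namely BRCA1, RAD54B, FANCD2, FANCI and RMI2 (1.48% of all tested genes were then called lower). Without the PMA library of lot 2, 0 of the 9 passed (adjusted p = 0.102 for RMI2 to 0.278 for FANCD2, with 0.438% of all genes called lower). Without that of lot 1, 1 of the 9 passed, BRCA1 (adjusted p = 0.0450, with 1.51% called lower). Without the untreated library of lot 2, RAD51C, XRCC2, PARP1 and CHEK2 were lost (adjusted p = 0.0524 to 0.0590) while BRIP1 and MSH6 passed, 7 genes in all (2.49%), and without that of lot 1 there were 12 (6.21%). The count was 9 with RLE factors (1.93%) and with upper quartile factors (2.39%), 10 with no filter (1.38%) and 14 with a filter of 5 CPM in 2 libraries (6.65%).

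Total counts were 35739833 to 50822971 in the PMA libraries and 41308603 to 54915928 in the untreated ones, and 19080 to 23213 entries had a count above 0. Levels below are CPM, the gene's count per total count scaled by the TMM factor. All 8 myeloid markers examined were detected, with a summed level of 11885 to 13228 CPM in PMA cells and 1855 to 2521 CPM in untreated cells. The integrin subunit ITGB2 carried that sum, at 10451 and 11987 CPM in PMA cells, against 927 and 933 CPM in untreated cells. The other 7 markers summed to 1433 and 1241 CPM in PMA cells and to 928 and 1587 CPM in untreated cells, which overlap; the granulocyte receptor CSF3R was below both untreated libraries in PMA cells, and the lysozyme gene LYZ was at 211 and 126 CPM in PMA cells, against 136 and 905 CPM in untreated cells. The T cell, fibroblast and endothelial markers were at 0 in every library. Summed B cell markers were at 11.3 to 13.5 CPM in PMA cells and 17.6 to 26.6 CPM in untreated cells, with MS4A1 at 0 in every library, and erythroid markers at 0 to 0.921 CPM in PMA cells and 2.94 to 8.14 CPM in untreated cells; their part in the results was not tested. Of the 20 proliferation genes examined, 19 could be tested, and 10 fell and 0 rose by edgeR (2.02% and 4.29% of all tested genes). At an unadjusted p under 0.05, and by DESeq2 or limma-voom, 0 were higher. Without the PMA library of lot 2, 3 were called lower. The proliferation marker MKI67 was at 28.9 and 8.67 CPM in PMA cells of lots 1 and 2, against 246 and 338 CPM in untreated cells (adjusted p = 0.0426, or 0.0546 in the fit blocked on lot). The topoisomerase TOP2A was at 25.2 and 5.82 CPM in PMA cells, against 325 and 192 CPM in untreated cells (adjusted p = 0.0566, or 0.0351 in the fit blocked on lot). This list's median log2 fold change was −3.82, and its summed level was 365 and 230 CPM in PMA cells, against 3559 and 3656 CPM in untreated cells; its part in the repair results was not tested.

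**Figure D1:**
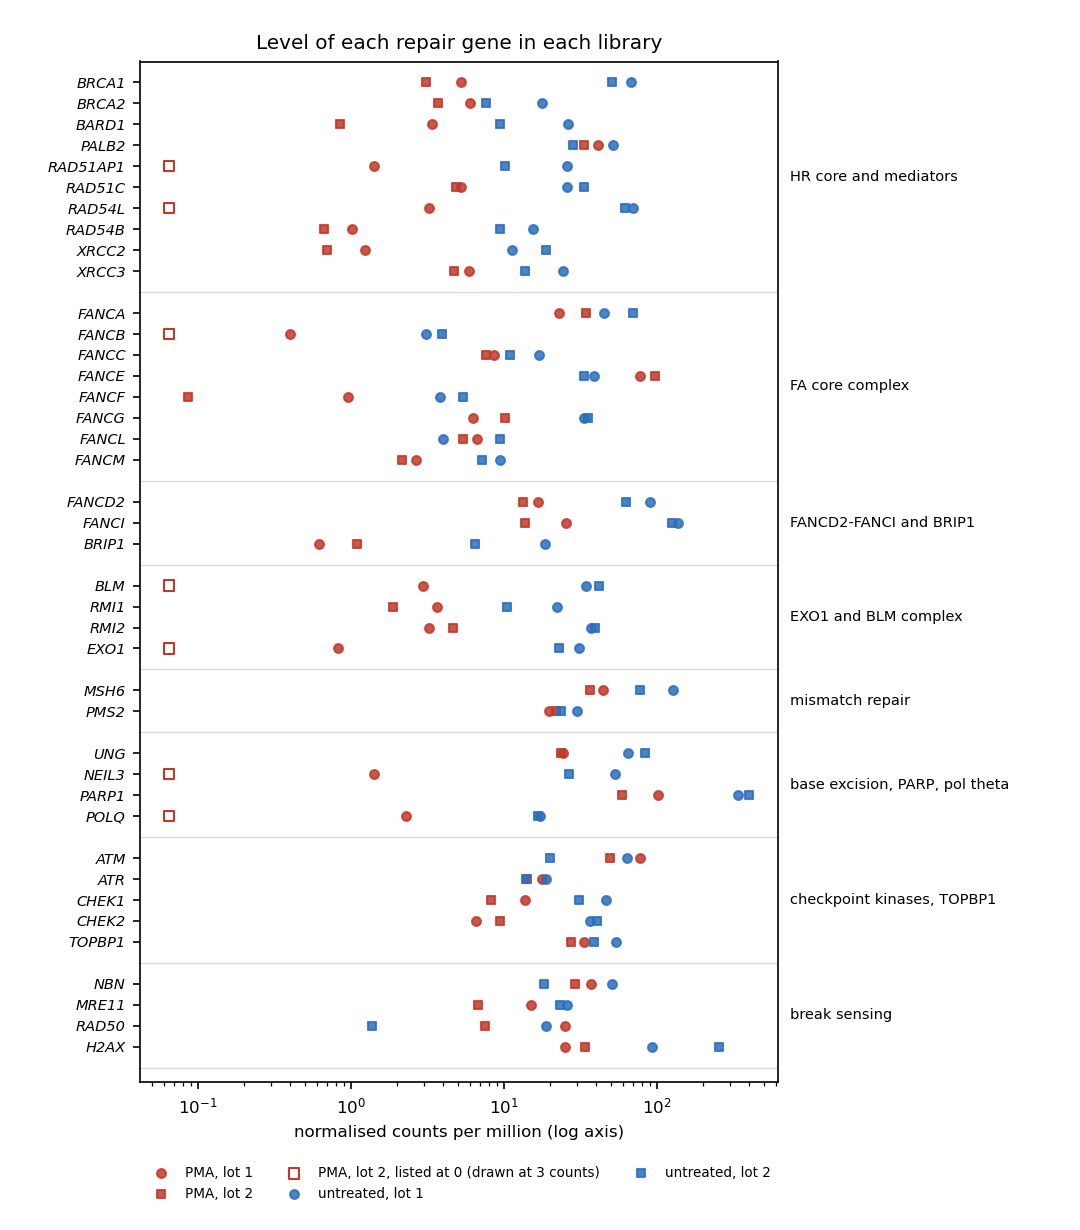
Normalised CPM (log axis) of the 40 repair genes in the 4 libraries, with PMA in red, untreated in blue, circles for lot 1 and squares for lot 2; open squares are genes listed at 0 in the PMA library of lot 2, drawn at the level of 3 counts. For 33 genes both red points lie left of both blue points, and FANCE shows the reverse.

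Of the 10 recombination genes, 4 fell (2.02% of all tested genes did), and 9 had both PMA libraries below both untreated ones (29.4% of all tested genes did). BRCA1, the ubiquitin ligase that directs breaks into recombination, was at 5.25 and 3.11 CPM in PMA cells of lots 1 and 2, against 67.9 and 51.2 CPM in untreated cells. It fell by 3.83 ± 0.49 on the log2 scale (SE, adjusted p = 0.0264), the smallest adjusted p among the 40 genes. BARD1, the protein with which BRCA1 forms its ligase, was at 3.38 and 0.844 CPM in PMA cells, against 26.2 and 9.46 CPM in untreated cells, and did not pass (log2 fold change −3.08 ± 0.95, adjusted p = 0.115). BRCA2, a mediator of strand exchange, had 6.01 and 3.72 CPM in PMA cells, against 17.8 and 7.67 CPM in untreated cells (−1.39 ± 0.65, adjusted p = 0.252). PALB2, the bridge between BRCA1 and BRCA2, was at 41.4 and 33.5 CPM in PMA cells and at 52.1 and 28.3 CPM in untreated cells, so that the groups overlapped (−0.10 ± 0.44, adjusted p = 0.913). These partners thus had fitted log2 fold changes between −3.83 and −0.10, and whether they differ from each other was not tested.

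XRCC2, which acts early in strand exchange, was at 1.23 and 0.692 CPM in PMA cells, against 11.4 and 18.8 CPM in untreated cells. It fell by 3.97 ± 0.66 (adjusted p = 0.0389). RAD51C was at 5.22 and 4.89 CPM in PMA cells, against 25.8 and 33.4 CPM in untreated cells, and fell by 2.55 ± 0.43 (adjusted p = 0.0398). XRCC3, the partner of RAD51C, was at 5.95 and 4.74 CPM in PMA cells, against 24.4 and 13.7 CPM in untreated cells, and did not pass (−1.83 ± 0.53, adjusted p = 0.0999). Blocking on lot gave XRCC2 an adjusted p of 0.0608 and RAD51C one of 0.0574.

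The RAD54 motor proteins act on DNA during strand exchange. RAD54B was at 1.01 and 0.671 CPM in PMA cells, against 15.4 and 9.41 CPM in untreated cells, and fell by 3.88 ± 0.64 (adjusted p = 0.0389). RAD54L was at 3.25 and 0 CPM in PMA cells of lots 1 and 2, against 69.8 and 61.9 CPM in untreated cells. Its fitted log2 fold change was larger in size (−5.36) but so was its standard error (1.94), and it did not pass (adjusted p = 0.161). RAD51AP1, an accessory factor of strand exchange, showed the same split between the PMA libraries, at 1.41 and 0 CPM, against 25.8 and 10.2 CPM in untreated cells (−4.70 ± 1.90, adjusted p = 0.199).

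**Figure D2:**
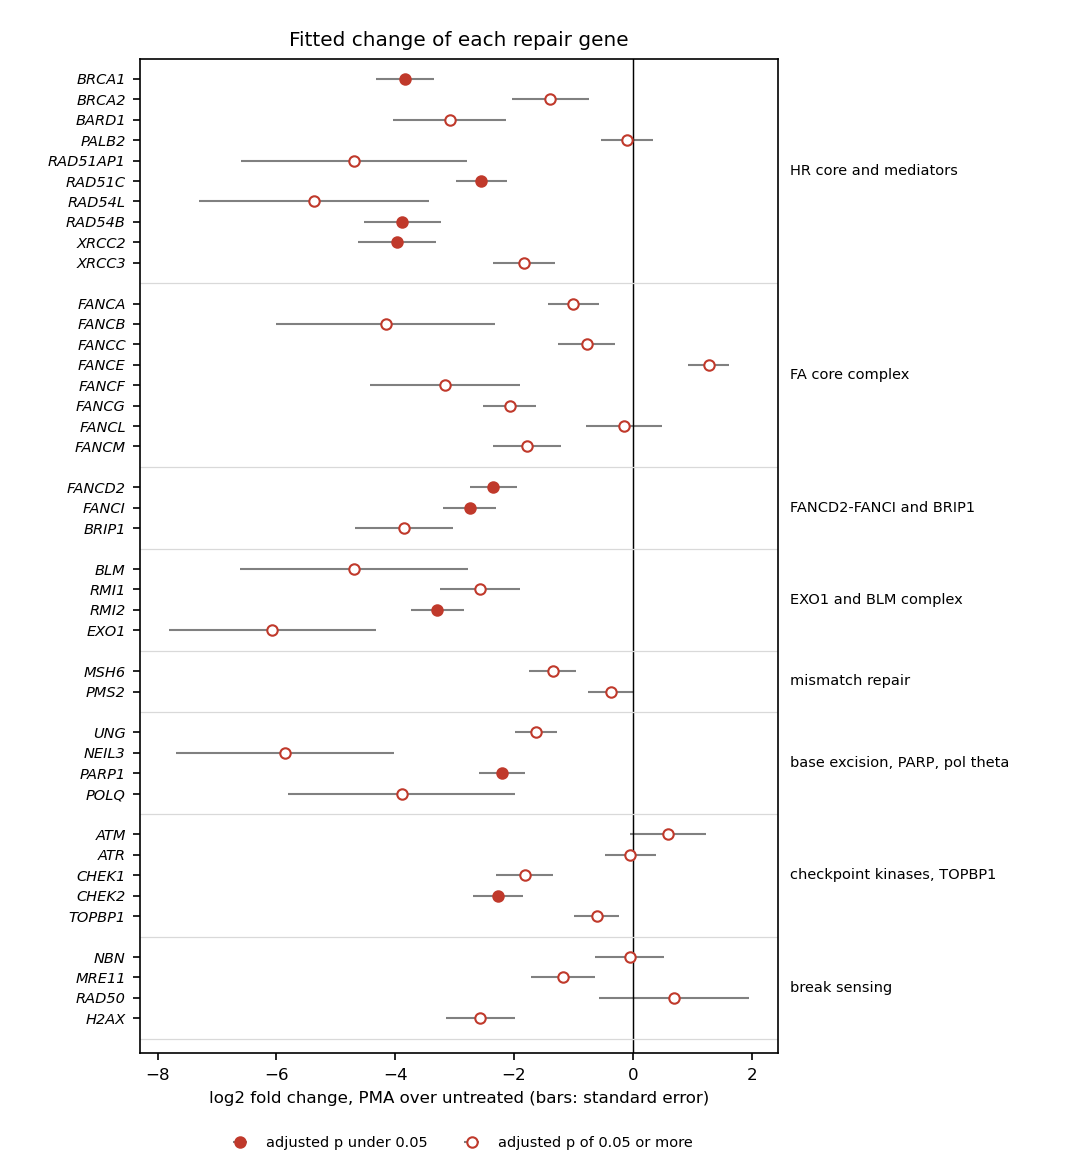
Fitted log2 fold change of each repair gene, PMA over untreated, with bars for the standard error; filled points have an adjusted p under 0.05. The 9 filled points lie between −3.97 and −2.20, while the genes furthest left, EXO1 and NEIL3, have long bars and are open.

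Promoter sequence was examined because many repair genes are known targets of E2F, the factors that switch on genes before S phase. RefSeq (GRCh38.p14) gave 50 windows, of 250 bases before to 50 bases after an annotated start, for 36 of the 40 genes. E2F-type words (TTTGGCG, its relative TTTCCCG, and TTCCCGC, which can overlap it, on either strand) were in 25 of the 50 windows (50%), against 10.7% of 35116 windows of all genes. The share was the same, 50%, in the 8 windows of genes that fell and in the 42 windows of genes without a call. CCAAT was in 52% of the windows, against 34.6% of all windows, and the cell-cycle word TTTGAA in 14%, against 15.2%. The 35116 windows were not limited to the tested genes, and in every set a gene with several windows counts more than once. CCAAT was in 25% of the windows of genes that fell and in 57.1% of those of genes without a call, and TTTGAA in 0% and 16.7%; with 8 windows in the first set, these shares are a description. A match of letters is no evidence of binding.
Windows are shown for BRCA1 and XRCC2, the genes with the smallest p that fell and had an entry, and for ATR, whose fitted change was the smallest in size; capitals mark the E2F-type words and, in BRCA1, CCAAT as well. BRCA1 has 2 annotated starts, and the window at the upstream one held none of these words.
BRCA1, chr17:43125315-43125614, minus strand: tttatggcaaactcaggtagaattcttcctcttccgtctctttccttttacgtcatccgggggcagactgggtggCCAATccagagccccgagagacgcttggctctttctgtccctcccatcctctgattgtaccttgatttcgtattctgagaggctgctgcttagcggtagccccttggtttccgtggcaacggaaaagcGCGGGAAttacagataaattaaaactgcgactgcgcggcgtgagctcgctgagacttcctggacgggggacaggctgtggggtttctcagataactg
XRCC2, chr7:152676092-152676391, minus strand: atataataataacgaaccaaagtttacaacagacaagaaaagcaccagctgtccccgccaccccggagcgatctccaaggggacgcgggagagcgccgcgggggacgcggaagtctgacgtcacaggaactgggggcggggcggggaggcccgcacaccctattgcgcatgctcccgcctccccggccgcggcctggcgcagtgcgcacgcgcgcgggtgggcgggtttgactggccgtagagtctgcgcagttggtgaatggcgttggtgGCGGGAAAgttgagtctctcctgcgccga
ATR, chr3:142578684-142578983, minus strand: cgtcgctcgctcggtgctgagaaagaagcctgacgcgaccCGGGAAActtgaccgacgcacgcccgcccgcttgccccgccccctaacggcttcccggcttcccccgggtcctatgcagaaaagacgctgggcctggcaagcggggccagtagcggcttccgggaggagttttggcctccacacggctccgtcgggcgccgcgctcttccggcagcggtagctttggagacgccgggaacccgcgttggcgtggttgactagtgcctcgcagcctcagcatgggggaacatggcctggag
Counted from the start, the E2F-type word of BRCA1 ends at base -41, that of XRCC2 begins at base 21 and that of ATR ends at base -204. Positions were taken for these printed windows only, so they describe no difference between genes that fell and other genes. The E2F1 mRNA itself was at 4.42 and 12.6 CPM in PMA cells, against 56.2 and 60.6 CPM in untreated cells (−2.77 ± 0.62, adjusted p = 0.0636). Whether the words, their positions or the E2F1 level have a part in the repair results was not tested.

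The 8 genes of the Fanconi core complex had 0 calls in either direction by edgeR. At an unadjusted p under 0.05, 2 were lower and 1 was higher, as by DESeq2, and limma-voom called 1 lower. Among all 16451 tested genes, 4445 had such a p in either direction. DESeq2 called 10.4% of its tested genes lower and 13.2% higher, and limma-voom 3.87% lower. FANCG, a scaffold subunit, was at 6.29 and 10.1 CPM in PMA cells, against 33.6 and 35.5 CPM in untreated cells (−2.07 ± 0.44, adjusted p = 0.0614). FANCE, the subunit that contacts FANCD2, was at 77.8 and 97.3 CPM in PMA cells, against 38.9 and 33.4 CPM in untreated cells (1.28 ± 0.34, adjusted p = 0.0880). It was 2.42 times as high with PMA in the means, and DESeq2 called it higher (adjusted p = 0.00418, within 0.00418 to 0.587 over 11 alternatives). FANCM, the translocase that anchors the complex at DNA, had 2.67 and 2.14 CPM in PMA cells, against 9.40 and 7.19 CPM in untreated cells (adjusted p = 0.124). FANCL, the ubiquitin ligase subunit itself, was at 6.72 and 5.39 CPM in PMA cells and at 3.99 and 9.43 CPM in untreated cells, with the untreated libraries on both sides of the PMA ones. FANCF reached 0.951 and 0.0865 CPM in PMA cells, the second value being 4 counts, against 3.83 and 5.40 CPM in untreated cells (adjusted p = 0.195). FANCB was at 0.399 and 0 CPM in PMA cells, against 3.12 and 3.92 CPM in untreated cells (adjusted p = 0.233). FANCF links parts of the complex and FANCB belongs to its ligase module, and both had their lower level with PMA in lot 2. FANCA, the partner of FANCG, was at 22.8 and 34.6 CPM in PMA cells, against 45.4 and 69.6 CPM in untreated cells (adjusted p = 0.219). FANCC, which binds FANCE, was at 8.62 and 7.61 CPM in PMA cells, against 16.9 and 11.0 CPM in untreated cells (adjusted p = 0.380). The summed level of the core complex was 126 and 157 CPM in PMA cells, against 155 and 175 CPM in untreated cells, and FANCE made up most of the PMA sum.

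Both genes of the pair that the core complex ubiquitinates fell. FANCD2 was at 16.8 and 13.3 CPM in PMA cells, against 89.8 and 63.2 CPM in untreated cells (−2.35 ± 0.40, adjusted p = 0.0398). FANCI was at 25.4 and 13.8 CPM in PMA cells, against 137 and 126 CPM in untreated cells (−2.75 ± 0.44, adjusted p = 0.0369). The helicase BRIP1, a partner of BRCA1, was at 0.614 and 1.10 CPM in PMA cells, against 18.5 and 6.44 CPM in untreated cells. It did not pass (−3.85 ± 0.82, adjusted p = 0.0607), and its untreated lots lay further apart than its PMA lots.

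The BLM helicase works with RMI1 and RMI2 to take apart joined recombination intermediates, and the nuclease EXO1 resects DNA ends and serves mismatch repair. RMI2 was at 3.22 and 4.63 CPM in PMA cells, against 37.4 and 39.4 CPM in untreated cells, and fell by 3.29 ± 0.44 (adjusted p = 0.0281). RMI1 was at 3.65 and 1.88 CPM in PMA cells, against 22.4 and 10.5 CPM in untreated cells (−2.57 ± 0.68, adjusted p = 0.0856). BLM was at 2.98 and 0 CPM in PMA cells, against 34.3 and 41.9 CPM in untreated cells (adjusted p = 0.201). EXO1 was at 0.829 and 0 CPM in PMA cells, against 31.0 and 22.9 CPM in untreated cells. Its fitted log2 fold change of −6.07 ± 1.74 was the lowest of the 40 genes, and it did not pass (adjusted p = 0.0996). For RMI2, BLM and EXO1 both untreated libraries were high, and for BLM and EXO1 the PMA libraries split into a low value and a 0.

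Of the mismatch repair genes MSH6 and PMS2, 0 passed by edgeR or limma-voom. MSH6 was lower at an unadjusted p under 0.05 and by DESeq2. Such a p was found for 4445 of all 16451 tested genes in either direction, and DESeq2 called 10.4% lower. MSH6, the subunit that recognises single mismatches, was at 44.3 and 36.5 CPM in PMA cells, against 129 and 77.5 CPM in untreated cells (−1.35 ± 0.40, adjusted p = 0.106). PMS2, the nuclease subunit of the repair complex, was at 19.7 and 22.1 CPM in PMA cells, against 30.1 and 23.8 CPM in untreated cells (−0.37 ± 0.38, adjusted p = 0.602). PMS2 has near-identical pseudogenes, so its single values are uncertain.

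PARP1, which binds strand breaks and marks them with ADP-ribose chains, was at 102 and 59.4 CPM in PMA cells, against 341 and 399 CPM in untreated cells, and fell by 2.20 ± 0.39 (adjusted p = 0.0440, or 0.0580 in the fit blocked on lot). UNG, the glycosylase that removes uracil from DNA, was at 24.3 and 23.8 CPM in PMA cells, against 64.8 and 83.6 CPM in untreated cells (−1.63 ± 0.35, adjusted p = 0.0618). NEIL3, a glycosylase that also unhooks some crosslinks, was at 1.41 and 0 CPM in PMA cells, against 53.2 and 26.6 CPM in untreated cells (−5.85 ± 1.84, adjusted p = 0.120). POLQ, the polymerase of theta-mediated end joining, was at 2.30 and 0 CPM in PMA cells, against 17.2 and 16.7 CPM in untreated cells (−3.89 ± 1.91, adjusted p = 0.273). All of these genes had both PMA libraries below both untreated ones (29.4% of all tested genes did), and the 2 with a 0 had the widest standard errors.

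Of the 5 checkpoint genes, 1 fell, CHEK2 (2.02% of all tested genes did), and ATM and ATR had overlapping groups. CHEK2, the effector downstream of ATM, was at 6.60 and 9.47 CPM in PMA cells, against 36.4 and 40.8 CPM in untreated cells, and fell by 2.26 ± 0.42 (adjusted p = 0.0480, or 0.0571 in the fit blocked on lot). Its value is uncertain, since it has near-identical pseudogenes. CHEK1, the effector downstream of ATR, was at 13.7 and 8.28 CPM in PMA cells, against 46.8 and 30.8 CPM in untreated cells (−1.82 ± 0.48, adjusted p = 0.0857). ATR, which responds to stalled forks, was at 17.6 and 14.2 CPM in PMA cells and at 18.9 and 14.0 CPM in untreated cells (−0.05 ± 0.43, adjusted p = 0.960). ATM, which responds to double-strand breaks, was at 77.2 and 49.6 CPM in PMA cells and at 64.4 and 19.9 CPM in untreated cells (0.59 ± 0.64, adjusted p = 0.624). TOPBP1, the activator of ATR, was at 33.5 and 27.5 CPM in PMA cells, against 54.1 and 39.0 CPM in untreated cells (adjusted p = 0.380). Whether CHEK2 and CHEK1 differ in response from ATM and ATR was not tested.

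The MRE11-RAD50-NBN complex holds broken ends and calls in ATM, and H2AX is the histone variant phosphorylated around breaks. Of these 4 genes, 0 passed by edgeR or limma-voom, and 1, H2AX, was lower at an unadjusted p under 0.05 and by DESeq2. Such a p was found for 4445 of all 16451 tested genes in either direction, and DESeq2 called 10.4% lower. H2AX was at 25.2 and 33.8 CPM in PMA cells, against 93.5 and 256 CPM in untreated cells (−2.57 ± 0.58, adjusted p = 0.0664). Its untreated lots differed more than its PMA lots, and poly(A) enrichment misses the form of this histone mRNA that ends in a stem-loop. MRE11 was at 15.0 and 6.81 CPM in PMA cells, against 25.9 and 23.2 CPM in untreated cells (adjusted p = 0.243). NBN was at 37.4 and 29.1 CPM in PMA cells and at 50.9 and 18.3 CPM in untreated cells (−0.06 ± 0.58, adjusted p = 0.964). RAD50 was at 25.1 and 7.48 CPM in PMA cells and at 18.8 and 1.37 CPM in untreated cells, so that its lots differed more than its treatments (0.69 ± 1.26, adjusted p = 0.783).

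A group of 7 genes was listed at 0 in the PMA library of lot 2 while it had 13 to 106 counts in that of lot 1. These were RAD51AP1, RAD54L, FANCB, BLM, EXO1, NEIL3 and POLQ. For the PMA library of lot 1 the count of such genes was 0 of 40 (0.796% of all tested genes). Against a floor of 3 counts, which covers counting error only, lot 2 alone gave a level at least 954-fold lower with PMA for RAD54L, at least 645-fold for BLM, at least 410-fold for NEIL3 and at least 353-fold for EXO1. In lot 1 the same genes had log2 ratios of −4.42, −3.53, −5.24 and −5.23. The share of genes at 0 in the PMA library of lot 2 and above 0 elsewhere was 17.5% in the list and 2.77% over all tested genes. Among all 3716 tested genes with 13 to 106 counts in the PMA library of lot 1, 13.0% were at 0 in that of lot 2, while the reverse held for 4.99% of 3145 genes. That range was set from the 7 genes themselves. The 17.5% is over all 40 genes, so it is no counterpart of the 13.0%. In that range the list's other genes were RAD54B, XRCC2, FANCF, FANCM, BRIP1 and RMI2, each above 0 in the PMA library of lot 2. The values are estimated counts, and whether a listed 0 is a failed estimate was not tested. Leaving out the PMA library of lot 1 would leave that 0 as the whole PMA arm, so nothing is read from a fit of these genes without it. Without the PMA library of lot 2, EXO1 passed edgeR's test (adjusted p = 0.0458) and the other 6 did not.

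**Figure D3:**
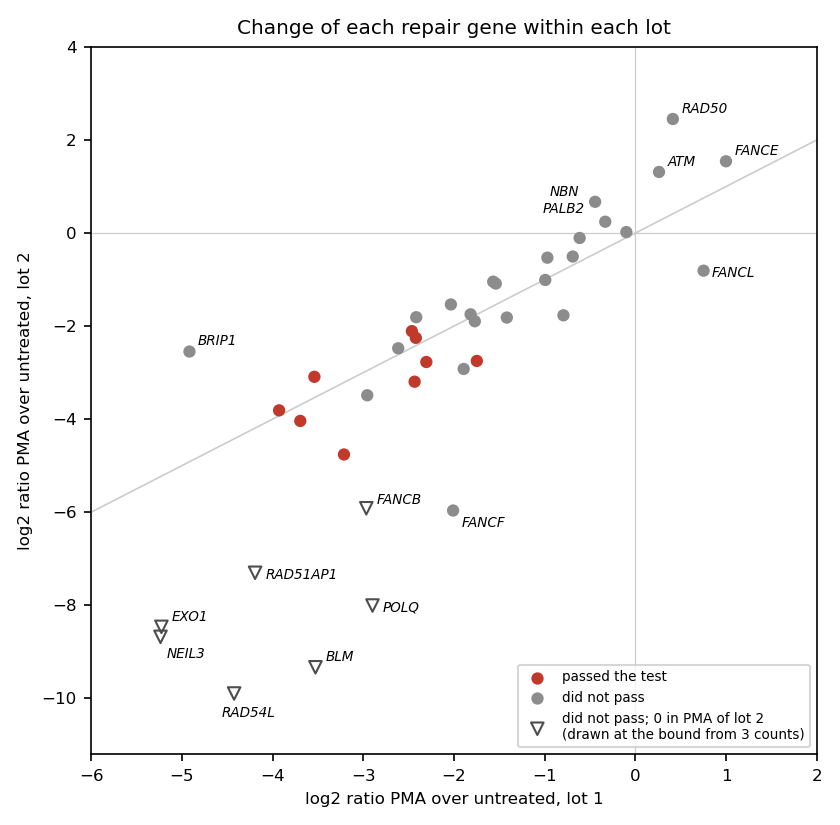
Log2 ratio of PMA over untreated within lot 1 (horizontal) and within lot 2 (vertical) for each repair gene, with 1 library per group and lot and so no error bars; triangles are genes at 0 in the PMA library of lot 2, drawn at the bound given by 3 counts, and the grey diagonal marks equal ratios. The 7 triangles lie further below the diagonal than any of the 9 red points that passed the test.

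Within single lots the median log2 ratio over the 40 genes, with 0.1 CPM added to each level, was −1.96 in lot 1 and −2.17 in lot 2, against −0.04 and 0.09 over all tested genes. In lot 1 the level was lower with PMA for 36 of the 40 genes (51.1% of all tested genes), and in lot 2 for 34 (46.1%). The level was lower in both lots for 33 genes (35.9% of all tested genes) and higher in both for 3 (37.8%), so that 36 genes had the same direction in both lots (73.6% of all tested genes).

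The authors' deposited table called 9 of the 40 genes lower with PMA and 0 higher, against 2.72% and 5.44% of the tested genes. It shares BRCA1, RAD54B, XRCC2, FANCI, RMI2 and PARP1 with the 9 genes above. In place of RAD51C, FANCD2 and CHEK2, for which the authors' deposited table has q-values of 0.219, 0.0791 and 0.294, it calls EXO1, NEIL3 and H2AX, with q-values of 0.0293, 0.0449 and 0.0202. EXO1 and NEIL3 were at 0 in 1 PMA library, and the untreated lots of H2AX lay apart. Why the authors' calls differ from those of edgeR was not tested.

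Other repair and checkpoint genes, 100 in all, were set beside the 40. Of these, 8 fell and 0 rose by edgeR (8%, against 2.02% of all tested genes called lower). Both PMA libraries lay below both untreated ones for 59 (59%, against 29.4%). At an unadjusted p under 0.05, 37 were lower and 3 higher, beside 4445 of all 16451 tested genes in either direction. DESeq2 called 31 lower (10.4% of all its tested genes) and 3 higher (13.2%), and limma-voom 15 lower (3.87%) and 0 higher. The median log2 fold change of the 100 genes was −0.89. Without the PMA library of lot 2, 0 of the 100 were called. Among the other recombination genes, the resection nuclease DNA2 (−2.36, adjusted p = 0.0753) and the single-strand binding subunit RPA3 (−1.96, adjusted p = 0.0773) did not pass. Of 14 other Fanconi genes, 1 fell (2.02% of all tested genes did). This was UBE2T, the ubiquitin-conjugating enzyme that works with FANCL, at 10.2 and 10.2 CPM in PMA cells, against 81.3 and 71.4 CPM in untreated cells (−2.90 ± 0.36, adjusted p = 0.0258). The deubiquitinase USP1, which reverses that mark, did not pass (−1.95, adjusted p = 0.0732), nor did the DNA-binding subunit CENPS (adjusted p = 0.0874).

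Among 8 other genes that serve mismatch repair, 2 fell (2.02% of all tested genes did). These were the sliding clamp PCNA and the ligase LIG1, both also parts of the replication fork. PCNA was at 83.3 and 72.6 CPM in PMA cells, against 420 and 583 CPM in untreated cells (−2.69 ± 0.34, adjusted p = 0.0264). LIG1 was at 12.4 and 12.5 CPM in PMA cells, against 97.8 and 78.4 CPM in untreated cells (−2.82 ± 0.36, adjusted p = 0.0270). Of 16 base excision genes, 1 fell (2.02% of all tested genes did). The thymine glycol glycosylase NTHL1 was at 1.72 and 2.77 CPM in PMA cells, against 18.5 and 32.2 CPM in untreated cells, and fell (−3.49 ± 0.58, adjusted p = 0.0391). Of these 16 genes, 7 had both PMA libraries below both untreated ones (29.4% of all tested genes did) and 6 above (31%). At an unadjusted p under 0.05, 5 were lower and 2 higher, beside 4445 of all 16451 tested genes in either direction. DESeq2 called 4 lower (10.4% of all its tested genes) and 2 higher (13.2%). Of 18 checkpoint genes, 3 fell (2.02% of all tested genes did). These were the CDK-inhibiting kinase WEE1 (−3.54 ± 0.48, adjusted p = 0.0281), the opposing phosphatase CDC25A (−3.08 ± 0.44, adjusted p = 0.0310) and the fork protector TIMELESS (−2.11 ± 0.38, adjusted p = 0.0453, or 0.0550 in the fit blocked on lot, where its call was lost).

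Among 10 genes of non-homologous end joining, 0 passed by edgeR (3 lower at an unadjusted p under 0.05 and by DESeq2, 1 by limma-voom), and their median was −0.55. Among 10 nucleotide excision genes, 0 passed by edgeR or limma-voom (2 lower at an unadjusted p under 0.05, 1 by DESeq2), and their median was −0.37. Over all 16451 tested genes, 4445 had an unadjusted p under 0.05 in either direction. DESeq2 called 10.4% of its tested genes lower, and limma-voom 3.87%. The end joining kinase PRKDC was at 246 and 116 CPM in PMA cells, against 630 and 530 CPM in untreated cells (−1.68 ± 0.45, adjusted p = 0.0893). The end-binding subunit XRCC6 (−1.12, adjusted p = 0.0938) and the accessory factor PAXX (−2.80, adjusted p = 0.0636) did not pass either. The damage sensor DDB2 was at 8.90 and 10.9 CPM in PMA cells, against 50.8 and 28.3 CPM in untreated cells (−1.99 ± 0.47, adjusted p = 0.0719). Whether these lists responded less than the recombination genes was not tested.

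**Figure D4:**
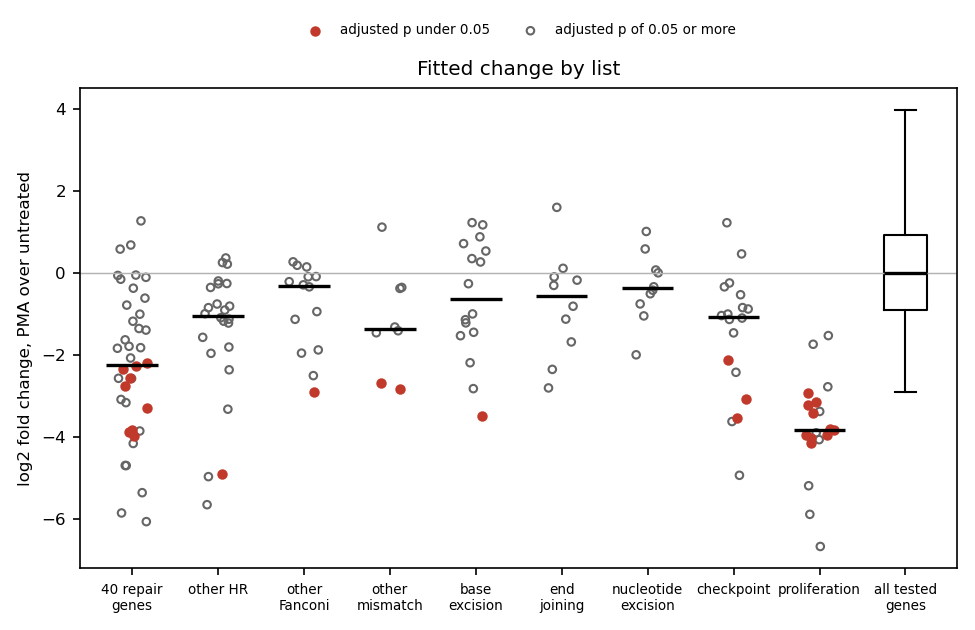
Fitted log2 fold change, PMA over untreated, of the 40 repair genes, of 7 lists of other repair and checkpoint genes and of 19 proliferation genes, with red points for an adjusted p under 0.05 and a black bar at each median; the box at the right shows the quartiles of all 16451 tested genes and its whiskers their 5% and 95% points. The medians run from −3.82 for proliferation genes and −2.23 for the 40 repair genes to −0.31 for the other Fanconi genes.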

How the data were processed

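Gene levels were measured by RNA sequencing of poly(A) RNA with an Ion Total RNA-Seq kit, per the labels' protocols, in 2 PMA and 2 untreated libraries. The authors deposited estimated counts per gene as whole numbers, not scaled between libraries. Tools named, without roles, in the submitters' processing notes are HISAT2 2.1.0 and StringTie 2.1.1. Counting step, build, annotation and strand were not given in the sources used here. Another deposited table has, for each gene, a signal (the count times 1 factor per library), and, per the file headers, the authors' log2 ratio, p-value and q-value, whose test is not stated. In GENCODE 29, exons of 20 of the 40 genes overlap another gene, 18 of them on the other strand, so their values can mix both genes; among the 9 that fell these are BRCA1, RAD54B, FANCD2, FANCI, RMI2 and CHEK2.

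Counts were rounded (which changed none) and tested with edgeR 4.0.16 in R 4.3.3: filterByExpr by group, TMM factors, quasi-likelihood test, Benjamini-Hochberg adjustment over 16451 genes, threshold 0.05. Standard errors are the log2 fold change over the square root of F. CPM use the TMM-scaled library size. The coefficient of variation between replicates was 0.626. No label states separate cultures for the lots, so the p-values rest on a spread between 4 libraries that may be technical; an exact permutation test of 2 against 2 cannot go below p = 0.333. Libraries were paired by the lot in their titles, and same-lot deviations from the group means correlated at 0.154 across genes; the lot as a block was an alternative. The others were RLE and upper quartile factors, no filter, 5 CPM in 2 libraries, DESeq2 1.42.0, limma-voom (limma 3.58.1) and leaving out each library. The members and lists were chosen with earlier results of these data known. All 40 members are given, and of the other lists up to 3 genes with the smallest p. A result for 1 gene of the other lists is not reported here, though the counts over those lists include it.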

Additional observations from a re-analysis of the deposited data

Results flagged for a closer look

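For 4 of the 40 genes the PMA level was above the untreated level in 1 lot and below it in the other. With 1 library per group and lot, this difference was not tested. The log2 ratio of PMA over untreated was −0.33 in lot 1 and 0.24 in lot 2 for PALB2, and 0.75 in lot 1 and −0.81 in lot 2 for FANCL. It was −0.44 in lot 1 and 0.67 in lot 2 for NBN, and −0.10 in lot 1 and 0.022 in lot 2 for ATR. For NBN, the untreated libraries, at 50.9 and 18.3 CPM in lots 1 and 2, lay further apart than the PMA libraries, at 37.4 and 29.1 CPM.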

How the results depend on the processing

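Of the 40 genes, 9 fell and 0 rose. The count of genes that fell was 14 with a filter of 5 CPM in 2 libraries, 21 with DESeq2 and 5 with the lot as a block; it was 9 with RLE or upper quartile factors, 10 without a filter, 13 with limma-voom, and 1 to 12 leaving out each library. DESeq2 alone called a rise, of 1 gene (FANCE). The 100 other repair genes had 8 falls, against 18 with 5 CPM in 2 libraries, 31 with DESeq2, 15 with limma-voom and 0 to 19 leaving out each library; DESeq2 called 3 rises. The median over the 40 genes (−2.23) was −2.41 with upper quartile factors, which moved the median of all genes to −0.17, and −2.36 to −2.13 leaving out each library. The cause of these shifts was not tested.

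Of the single genes, 6 that did not pass turned direction. In the main fit ATM was at 0.59 ± 0.64 and RAD50 at 0.69 ± 1.26. Leaving out each library, the log2 fold change was −0.48 to 0.34 for PALB2, −0.70 to 0.60 for FANCL, −0.023 to 1.61 for ATM, −0.28 to 0.13 for ATR, −0.61 to 0.80 for NBN and −0.49 to 3.51 for RAD50. With limma-voom it was 0.0098 for FANCL and 0.067 for NBN, and with the lot as a block 0.11 for NBN.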

Other observations

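Levels per kilobase of the longest GENCODE 29 transcript allow the 40 genes to be ordered. In PMA cells the order began with FANCE at 34.3 CPM per kb, PARP1 at 20.3 and H2AX at 18.3. In untreated cells it began with H2AX at 108 CPM per kb, PARP1 at 93.6 and UNG at 33.2, and FANCE stood at place 10 with 14.1. RAD54L was at place 27 in PMA cells with 0.523 CPM per kb and at place 5 in untreated cells with 21.2. BRCA2 was last in untreated cells with 1.06 CPM per kb.

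Transcript length moved with the difference between lots. Over the 40 genes, Spearman's rho between that length and the log2 ratio of lot 2 over lot 1 was −0.20 in PMA cells and −0.44 in untreated cells, against −0.21 and −0.28 over 16310 tested genes. Between length and the fitted log2 fold change, PMA over untreated, rho was 0.25 over the 40 genes and 0.16 over all those tested. Genes share libraries, so these are descriptions.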
